A study of Homo sapiens with 12 samples.

Results

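MCC and 9 genes of the Wnt/beta-catenin pathway were followed in Huh7 human hepatoma cells treated with Molidustat, an inhibitor of the prolyl hydroxylases that mark hypoxia-inducible factors (HIF) for destruction. The 10 genes, out of 60666 in the count files, were MCC, APC, CTNNB1, AXIN1, AXIN2, TCF7L2, LGR5, DKK1, NKD1 and RNF43. They were chosen by name: MCC because its count was lower with Molidustat at 48 h, the others as components or targets of the pathway. The difference of MCC at 48 h, and any measure built on those libraries, is therefore described here without a test. Cells of this line, grown in high-glucose medium with serum, received 25 µM Molidustat or the solvent DMSO alone for 24 or 48 h, and each of the 4 groups holds 3 libraries, 12 in all. No genetic change separates the groups, and 1 cell line stands for all of them. Polyadenylated RNA was read at its 3′ end, so counts carry no correction for length, and levels are compared here within a gene, not between genes. The exception is the marker genes of cell types, which are also summed and ranked by CPM. The counts assigned to genes ranged from 1499273 to 9179389 per library.

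In the canonical Wnt pathway, beta-catenin, encoded by CTNNB1, is held low by a destruction complex built on the scaffolds APC and AXIN1. Wnt ligands bound to Frizzled and LRP receptors inactivate that complex, and beta-catenin then joins TCF factors such as TCF7L2 at target genes. Several targets act back on the pathway: AXIN2 and NKD1 inside the cell, DKK1 as a secreted inhibitor of LRP receptors, LGR5 as an R-spondin receptor and RNF43 as the ubiquitin ligase that removes Frizzled. MCC, named as mutated in colorectal cancers, lies near APC on chromosome 5 and has been described as a binder and inhibitor of beta-catenin. In liver the pathway sets gene expression around the central vein, and activating changes of CTNNB1 are common in hepatocellular carcinoma.

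One library stood apart from the rest. In DMSO 48 h replicate 2, 50.4% of the reads HTSeq listed fell in no annotated gene, against 17.1 to 25.6% in the other 11 libraries, and its gene total of 1499273 was the lowest. Its normalization factor (trimmed mean of M values, TMM) was 0.629, against 1.01 to 1.08 elsewhere. Its correlation with other libraries across genes, on the log2 scale of CPM (counts scaled to a common library size), lay between 0.707 and 0.782, whereas every pair among the other 11 reached at least 0.855. Results are given with and without this library.

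MCC occupies 466.7 kb of the minus strand at chr5:113022106-113488823 (GRCh38). Its 3′ end overlaps DCP2, which encodes an mRNA decapping enzyme and lies on the opposite strand at chr5:112976702-113022195. APC lies on the plus strand of the same chromosome at chr5:112707518-112846239, separated from MCC by SRP19, REEP5 and DCP2 among others. The remaining members lie at chr3:41194741-41260096 (CTNNB1), chr16:287440-352723 (AXIN1), chr17:65528563-65561648 (AXIN2), chr10:112950247-113167678 (TCF7L2), chr12:71439798-71586310 (LGR5), chr10:52314281-52318042 (DKK1), chr16:50548396-50649249 (NKD1) and chr17:58353676-58417595 (RNF43). RNF43 shares its strand and span with a readthrough gene, ENSG00000285897, which took 5498 counts over the 12 libraries, and APC overlaps ENSG00000258864 with 1417. Reads of these members may therefore have been assigned to those genes or listed as ambiguous, which would lower the members' counts.

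Start sites of the members are shown because the treatment acts on HIF, whose binding core is ACGTG or GCGTG. RefSeq promoter windows (GRCh38.p14), from 250 bases before to 50 after a gene's start, were found for 7 of the 10 members: MCC, APC, CTNNB1, AXIN1, TCF7L2, DKK1 and RNF43. A HIF core stood on either strand in 4 of the 7 (APC, AXIN1, TCF7L2 and RNF43), against 48.4% of all 27305 promoters of that length. The TCF element, searched as CTTTGAA or CTTTGAT on both strands, was present in DKK1 alone, against 6.98% of all promoters. The MCC window held neither motif. Given 5′ to 3′ on the strand of each gene are the start of MCC with the transcribed bases in capitals, at chr5:113488439-113488468 on the minus strand, followed by the motif in capitals in 4 members, at chr5:112707477-112707506 (APC, plus), chr10:112950173-112950202 (TCF7L2, plus), chr17:58417588-58417617 (RNF43, minus) and chr10:52314174-52314203 (DKK1, plus).
MCC start: gcggattccagctgcGGTCGCGCGTACTCC
APC HIF core: agcaacacctctCACGCatgcgcattgtag
TCF7L2 HIF core: tttatttatgcaCACGTcactgggccggcc
RNF43 HIF core: agcaggtagagaGCGTGattgcagtcccag
DKK1 TCF element: cccctcccagcgCTTTGAAatcccatcccg
The APC and TCF7L2 cores read GCGTG and ACGTG on the opposite strand. The start of MCC used by RefSeq, base 113488453, lies 370 bases inside the outermost start in the GENCODE annotation. These matches describe letters in a window and not binding.

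The treatment was visible in genes known to respond to HIF. Of 9 such genes 8 had enough counts for testing, and calls of a higher level numbered 5 at 24 h and 2 at 48 h (0.231% and 0.21% of all genes), where a call is an adjusted p under 0.05 in edgeR's quasi-likelihood test with a log2 fold change beyond 1. Their median log2 fold change was 2.23 at 24 h and 1.64 at 48 h, against 0.02 and 0.01 over all 14274 genes tested. BNIP3, a mitophagy receptor, rose by 2.81 (SE 0.34, adjusted p = 0.000977 in edgeR) at 24 h and by 2.68 (SE 0.34, adjusted p = 0.00149) at 48 h.

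MCC stood at 91.7, 57.2 and 62.4 CPM, scaled with TMM factors, in the 3 DMSO libraries at 24 h and at 36.8, 45.3 and 56.3 in the Molidustat libraries. All 3 treated libraries were below all 3 controls, although the highest treated and the lowest control value nearly met. The means were 70.4 ± 18.6 and 46.2 ± 9.79 CPM (SD, n = 3), a log2 fold change of -0.61 (SE 0.58, adjusted p = 0.999 in edgeR). DMSO 48 h replicate 2 is in neither group and enters this comparison through the spread, scaling and filter shared by all libraries. Without it the change was -0.59 with an SE of 0.28 (adjusted p = 0.550 in edgeR). The 24 h difference of MCC thus did not pass the test in either fit. In bulk RNA such as this, fewer cells with a transcript and less of it per cell cannot be told apart.

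At 48 h the DMSO libraries held MCC at 67.7, 428.5 and 54.4 CPM and the Molidustat libraries at 16.3, 14.1 and 13.7. The value of 428.5 belongs to replicate 2. The groups do not overlap, which leaving out a control cannot change. The means were 183.5 ± 212 CPM (SD, n = 3) in DMSO, or 61.0 ± 9.40 (SD, n = 2) without replicate 2, and 14.7 ± 1.44 (SD, n = 3) in Molidustat. On the log2 scale the fitted difference was -3.61 with all libraries and -2.06 without replicate 2, that is 0.0818 and 0.239 of the DMSO level. In counts, the treated libraries held 73, 33 and 73 reads and the controls 501, 404 and 528.

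Ordered by mean over the libraries other than DMSO 48 h replicate 2, MCC was highest in DMSO at 24 h, followed by DMSO at 48 h, Molidustat at 24 h and Molidustat at 48 h. The DMSO libraries of the 2 times overlapped, and so did DMSO at 48 h and Molidustat at 24 h. Molidustat at 48 h lay below every other library, and its highest value of 16.3 CPM was well under the lowest of 36.8 at 24 h. Between the Molidustat times the fitted log2 difference was -1.65, and between the DMSO times it was -0.18 without replicate 2 and 1.35 with it. The direction in the DMSO pair therefore rested on that library.

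**Figure D1:**
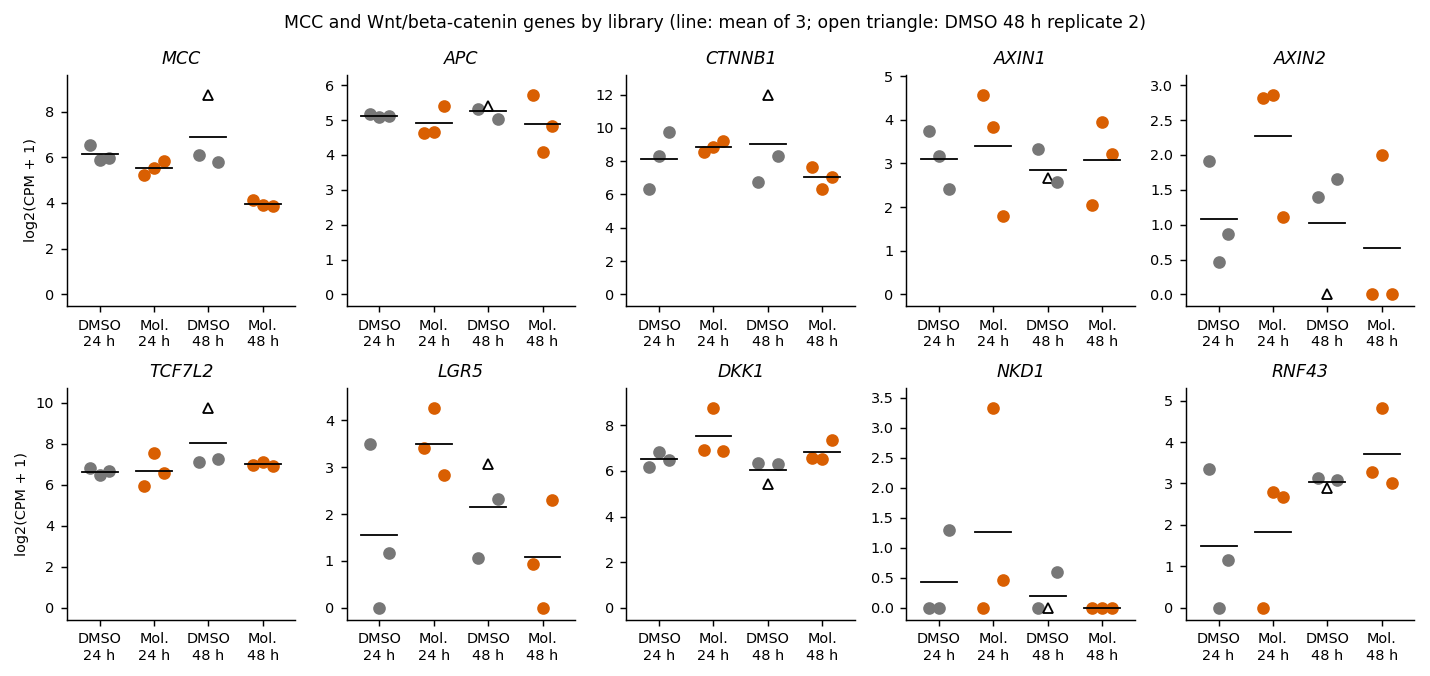
Level of each of the 10 genes in each library as log2(CPM + 1), by treatment (Mol., Molidustat) and time; lines are means of 3 libraries and the open triangle is DMSO 48 h replicate 2. MCC at 48 h with Molidustat lies below all other libraries, and the triangle lies far above its group in MCC, CTNNB1 and TCF7L2.

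None of the genes beside MCC on the chromosome passed the test at 48 h. DCP2 stood at 62.9, 307.6 and 63.3 CPM in DMSO at 48 h and at 71.6, 59.8 and 46.4 in Molidustat. Its replicate 2 value was high, as for MCC, and its groups overlapped, with a log2 fold change of -1.26 (SE 0.50, adjusted p = 0.292 in edgeR) that became -0.10 (SE 0.29) without that library. The changes at 48 h were 0.53 (SE 0.30) for REEP5, 0.10 (SE 0.30) for SRP19 and 0.79 (SE 0.37) for YTHDC2, the next gene beyond the MCC start, and none of these passed the test (adjusted p = 0.477, 0.928 and 0.377 in edgeR). TSSK1B, a kinase gene inside MCC on the same strand, had no counts.

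Among the scaffolds of the destruction complex, APC differed little between the groups. Its levels were 35.0, 33 and 34.0 CPM in DMSO and 23.9, 24.4 and 41.4 in Molidustat at 24 h. At 48 h they were 39.2, 41.4 and 31.8 in DMSO and 52.2, 15.8 and 27.5 in Molidustat. The groups overlapped at both times, and the log2 fold changes were -0.18 (SE 0.40) and -0.22 (SE 0.41), the second between -0.77 without Molidustat 48 h replicate 1 and 0.08 without Molidustat 48 h replicate 2. APC was not raised in DMSO 48 h replicate 2, unlike MCC. AXIN1 ranged from 2.49 to 22.9 CPM over the 12 libraries with overlapping groups, at log2 fold changes of 0.62 (SE 0.74) and 0.37 (SE 0.76) that turned to -0.06 without Molidustat 24 h replicate 1 and to -0.21 without Molidustat 48 h replicate 2. Neither scaffold passed the test (lowest adjusted p = 0.877 in edgeR, for APC at 48 h).

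CTNNB1 varied widely between replicates. The DMSO libraries at 24 h held 78.5, 319.7 and 862.8 CPM and the Molidustat libraries 366.5, 469.0 and 600.0. At 48 h DMSO held 108.3, 4099 and 314.3 CPM and Molidustat 202.8, 80.8 and 133.5. The value of 4099 is DMSO 48 h replicate 2 again, and groups overlapped at both times. The log2 fold change was 0.19 (SE 0.95, adjusted p = 0.999 in edgeR) at 24 h, and it ran from -0.30 without DMSO 24 h replicate 1 to 1.25 without DMSO 24 h replicate 3. At 48 h it was -3.43 (SE 1.05, adjusted p = 0.205 in edgeR), and -0.62 (SE 0.62) without that library. Leaving out DMSO 48 h replicate 1 instead gave -3.93, which was called (adjusted p = 0.0403 in edgeR), so both the size and the call hung on which control was kept. The call also moved with the filter, since edgeR with all libraries and no filter on low counts called CTNNB1 at -3.33 (adjusted p = 1.81e-10). In Molidustat, the fitted log2 difference of CTNNB1, 48 h against 24 h, was -1.78 (SE 0.98, adjusted p = 0.9998 in edgeR).

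TCF7L2, the TCF factor among the members, stood at 110.5, 87.5 and 102.3 CPM in DMSO and at 61.4, 185.4 and 96.0 in Molidustat at 24 h. At 48 h DMSO held 140.0, 868.7 and 153.0 CPM and Molidustat 124.5, 135.9 and 120.2. All treated libraries were below all controls at 48 h (8.01% of all genes), while the groups overlapped at 24 h. Leaving out a control cannot undo such a separation, which without replicate 2 held for 15% of all genes. The log2 fold change at 48 h was -1.60 (SE 0.59, adjusted p = 0.248 in edgeR) with all libraries and -0.22 (SE 0.34) without replicate 2. Between the DMSO times the fitted log2 difference of TCF7L2, 48 h against 24 h, was 1.94 (SE 0.59, adjusted p = 0.541 in edgeR). Without replicate 2 it was 0.57 (SE 0.34).

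DKK1 was higher in every Molidustat library than in every control at both times. At 24 h DMSO held 72.1, 112.8 and 89.3 CPM and Molidustat 121.4, 435.9 and 116.3. At 48 h the levels were 81.7, 42.4 and 78.0 in DMSO and 94.5, 91.4 and 165.3 in Molidustat. Molidustat replicate 2 was far above the other treated libraries at 24 h. The log2 fold changes were 1.30 (SE 0.48, adjusted p = 0.707 in edgeR) and 0.78 (SE 0.48, adjusted p = 0.521), and neither passed. Without Molidustat 24 h replicate 2 the 24 h change was 0.38, and without DMSO 48 h replicate 2 the 48 h change was 0.54 (SE 0.46).

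AXIN2, LGR5, NKD1 and RNF43, the feedback genes besides DKK1, had few counts. AXIN2 had 12, 1 and 4 counts in DMSO and 17, 52 and 6 in Molidustat at 24 h, and 12, 0 and 21 against 0, 7 and 0 at 48 h. Its groups overlapped, with log2 fold changes of 1.72 (SE 1.43) and -0.75 (SE 1.49), of which the first was 2.79 without DMSO 24 h replicate 1 and the second ran from -5.92 without Molidustat 48 h replicate 2, fitted against treated libraries without counts, to -0.07 without Molidustat 48 h replicate 3. LGR5 stood at 10.3, 0 and 1.23 CPM against 9.64, 18.3 and 6.13 at 24 h, and at 1.08, 7.42 and 4.01 against 0.896, 0 and 3.93 at 48 h. Its groups overlapped too, with changes of 1.53 (SE 1.18) and -1.11 (SE 1.26), which became 3.97 without DMSO 24 h replicate 1 and -2.78 without Molidustat 48 h replicate 3. Within Molidustat the fitted log2 difference of LGR5, 48 h against 24 h, was -2.70 (SE 1.25, adjusted p = 0.9998 in edgeR).

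RNF43 had 40, 0 and 6 counts against 0, 49 and 28 at 24 h, and 57, 6 and 72 against 39, 64 and 38 at 48 h. Its changes were 0.14 (SE 1.1) and 0.97 (SE 1.09) with overlapping groups. Single libraries set them: the 24 h change was -0.40 without DMSO 24 h replicate 2 and 2.42 without DMSO 24 h replicate 1, and the 48 h change was 0.12 without Molidustat 48 h replicate 2. With Molidustat its fitted log2 difference, 48 h against 24 h, was 1.85 (SE 1.1, adjusted p = 0.9998 in edgeR). NKD1 was too rarely counted for a test: 75 of its counts came from Molidustat 24 h replicate 2, the other libraries had at most 7 each, and the 3 Molidustat libraries at 48 h had none.

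**Figure D2:**
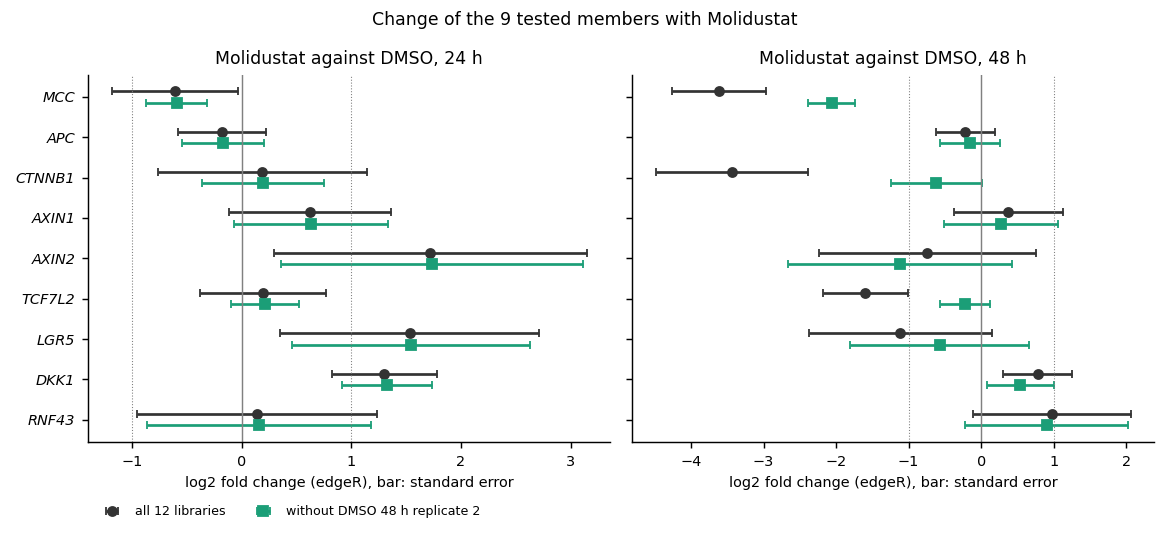
Log2 fold change of the 9 tested genes with Molidustat at 24 h and 48 h from edgeR, with bars for the standard error; circles use all 12 libraries, squares leave out DMSO 48 h replicate 2, and dotted lines mark a change of 1 in either direction. At 48 h CTNNB1 moves from -3.43 to -0.62 and TCF7L2 from -1.60 to -0.22 without that library, while MCC moves from -3.61 to -2.06.

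Counted together, 9 of the 10 members were tested. edgeR called none at 24 h, where 0.231% of all genes tested were called higher and 0% lower, nor without DMSO 48 h replicate 2 (0.728% and 0.0328%). MCC, picked for its 48 h difference, is left out of the counts that use the 48 h libraries. Of the other 8 members edgeR with the main filter called none at 48 h with all libraries (0.21% of all genes higher, 0.021% lower) or without replicate 2 (0.315% and 0.0328%). With no filter on low counts it called CTNNB1 and TCF7L2 lower, where 154 of 28430 genes were called higher and 610 lower. At an unadjusted p under 0.05, DKK1 was higher at 24 h and no member lower (3.73% and 1.52% of all genes). Without DMSO 48 h replicate 2, DKK1 was higher and MCC lower at that time, where 945 and 434 of all 15253 genes were. CTNNB1 and TCF7L2 were lower at 48 h (8.81% of all genes), which without replicate 2 became 0 of the 8 (2.92%). Groups did not overlap for DKK1, higher, and MCC, lower, at 24 h (7.26% and 5.02% of all genes), and for DKK1, higher, and TCF7L2, lower, at 48 h (9.96% and 8.01%).

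Over time and in the difference between the 2 times edgeR with the main filter called none of the 8 either. All genes gave there 0% in each direction for that difference and for Molidustat over time, and 0% higher and 0.00701% lower for DMSO over time. With no filter on low counts edgeR called CTNNB1 in the difference (-3.54, adjusted p = 5.53e-06), where 6 of 28430 genes were called higher and 315 lower. In DMSO over time it then called CTNNB1 and TCF7L2 (1.73 and 1.86, adjusted p = 0.00569 and 0.00130), where 387 genes were called higher and 13 lower. At an unadjusted p under 0.05, CTNNB1 and TCF7L2 were lower in the difference between the times (1.18% of all genes higher, 5.6% lower), and 0 of the 8 without DMSO 48 h replicate 2 (1.24% and 1.95%). TCF7L2 was higher in DMSO at 48 h than at 24 h (6.76% higher, 1.38% lower), again 0 of the 8 without that library (2.89% and 1.13%). LGR5 was lower in Molidustat at 48 h than at 24 h (2.39% higher, 2.19% lower), and without that library CTNNB1, LGR5 and DKK1 were (4.38% and 4.86%). That library enters this comparison only through the spread, scaling and filter shared by all libraries.

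The same library set the levels of some members and not of others. Its log2 ratio to the mean of DMSO 48 h replicates 1 and 3, on CPM + 1, was 4.27 for CTNNB1, above 99.85% of the genes tested. The ratio was 2.79 for MCC and 2.56 for TCF7L2, above 95.7% and 94.1% of genes. LGR5 was at 1.25, APC at 0.22, RNF43 at -0.22, AXIN1 at -0.34, DKK1 at -0.90 and AXIN2 at -1.53, within the bulk of genes. By annotated span, the median ratio was -0.58 for genes up to 10 kb, -0.34 from 10 to 50 kb, -0.10 from 50 to 200 kb and 0.07 above 200 kb. MCC and TCF7L2 belong to the longest class and CTNNB1, at 65.4 kb, to the class below it. The part that span and the large no-feature share play in the members' values was not tested.

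**Figure D3:**
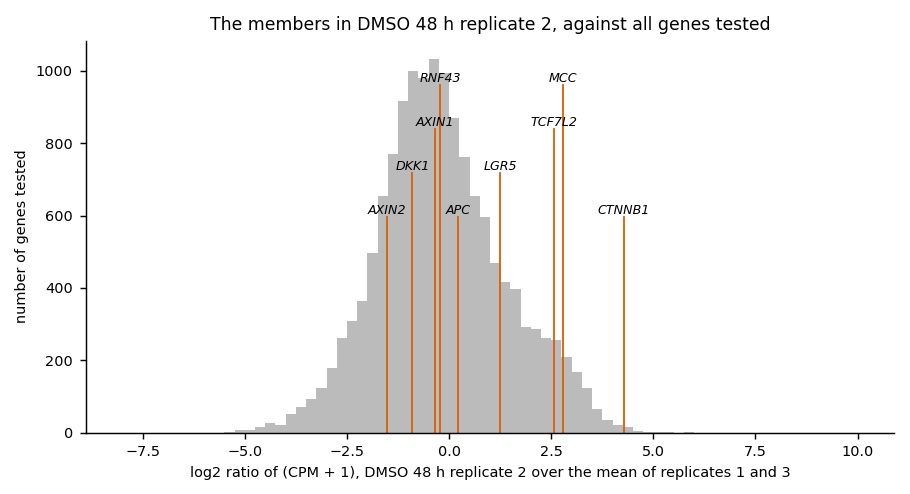
Number of genes tested by the log2 ratio of CPM + 1 in DMSO 48 h replicate 2 over the mean of replicates 1 and 3, with the 9 tested members as lines whose heights only separate the names. CTNNB1, MCC and TCF7L2 lie in the upper tail at 4.27, 2.79 and 2.56, and the other 6 lie between -1.53 and 1.25.

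Beyond the members, a list of 108 genes covering the pathway from ligands to targets was examined, and 67 had enough counts for testing. Their median log2 fold change was 0.09 at 24 h and -0.06 at 48 h, against 0.02 and 0.01 over all genes. With all libraries and the main filter, edgeR called no gene of the list at 24 h. At an unadjusted p under 0.05, 3 were higher and 2 lower, where all genes gave 3.73% and 1.52%. DESeq2 called 1 at that time and limma-voom none. With no filter on low counts edgeR called 1 higher and 1 lower (104 and 2 of all 28430 genes). Without DMSO 48 h replicate 2 it called NOTUM, lower (0.0328% of all genes). At an unadjusted p under 0.05, 5 were then higher and 5 lower of 69 (7.25% each), against 945 and 434 of all 15253 genes. At 48 h, with MCC left out because it was picked there, edgeR with all libraries and the main filter called none of the other 66. Of these 4 were higher and 9 lower at an unadjusted p under 0.05, which is 6.06% and 13.6%, against 4.53% and 8.81% of all genes. Without DMSO 48 h replicate 2 these became 3 and 4 of 68 genes, or 4.41% and 5.88%, against 3.68% and 2.92% of all genes. Groups that did not overlap numbered 4 higher and 5 lower of the 67 at 24 h, where all genes gave 7.26% and 5.02%. At 48 h they numbered 9 higher and 9 lower of the 66, or 13.6% each, against 9.96% and 8.01% of all genes, and without replicate 2 they numbered 15 and 11 of 68, or 22.1% and 16.2%, against 13.3% and 15%.

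Few ligands were detected in these cells. Of 19 Wnt genes 11 had no count in any library, and only WNT3 and WNT5A passed the filter, neither with an unadjusted p under 0.05. Their median change was 2.0 at the earlier time and -1.33 at the later, and without DMSO 48 h replicate 2, when 3 ligands were tested, it was 0.95 and 0.02. WNT5A, a ligand of the non-canonical branch, had 0, 0 and 1 counts in DMSO and 4, 10 and 0 with Molidustat at 24 h. WNT5B and WNT10A, named after their values were seen, had no counts in DMSO at either time. With Molidustat WNT5B had 11, 0 and 8 counts at 48 h, at least 9.42-fold higher against 3 counts over the control group, and all 22 counts of WNT10A lay in Molidustat 24 h replicate 2. The receptors were better represented, with 13 of 15 tested and 10 counted in every library. Their median change was 0.34 at 24 h and 0.13 at 48 h. FZD7, a Frizzled receptor, stood at 10.3, 13.4 and 9.88 CPM in DMSO and at 24.3, 19.2 and 19.4 in Molidustat at 24 h, without overlap. Its change was 0.90 (SE 0.42, adjusted p = 0.935 in edgeR) at 24 h and 0.91 (SE 0.42) at 48 h, where the groups overlapped.

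ZNRF3, the ubiquitin ligase related to RNF43, was lower with Molidustat at both times without overlap. It stood at 61.1, 53.4 and 100.8 CPM in DMSO and 23.9, 40.5 and 33.3 in Molidustat at 24 h. At 48 h the levels were 57.0, 150.6 and 62.1 against 30.4, 28.6 and 29.8. The log2 changes were -1.13 (SE 0.40, adjusted p = 0.635 in edgeR) and -1.57 (SE 0.41, adjusted p = 0.171), so neither passed, and without DMSO 48 h replicate 2 they were -1.12 (SE 0.30) and -1.02 (SE 0.33). DESeq2 called the 48 h change of ZNRF3 with all libraries (adjusted p = 0.0208) and, with that library left out, the 24 h change (adjusted p = 0.0228). The 4 tested genes of the R-spondin arm, ZNRF3 included, had median changes of -0.13 and -0.51.

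NOTUM, which encodes the enzyme that strips the lipid from secreted Wnt proteins and is itself a Wnt target in liver, had 29, 14 and 14 counts in DMSO at 24 h and none in any Molidustat library. Against the limit that 3 counts over the group would set, it was at least 26.2-fold lower (adjusted p = 0.0790 in edgeR). At 48 h it had 8, 0 and 20 counts in DMSO and 17, 11 and 17 with Molidustat, which scaled to library size was 1.08, 0 and 2.06 against 3.81, 4.70 and 3.18 CPM, higher in every treated library, at 1.62 (SE 1.03, adjusted p = 0.548 in edgeR). The 24 h difference was called by DESeq2 (adjusted p = 0.000531) and by edgeR without DMSO 48 h replicate 2 (adjusted p = 0.0215) or with no filter on low counts (adjusted p = 0.0138). The other genes of ligand secretion, PORCN and WLS, did not pass the test, and the list of 3 had medians of -2.22 and 0.23. Without DMSO 48 h replicate 2 the 48 h median turned to -0.21.

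Of 15 secreted antagonists and their co-receptors 6 were tested, with medians of 0.64 and 0.60. SOSTDC1, a secreted Wnt and BMP antagonist, had no counts in any DMSO library at either time. With Molidustat it had 0, 0 and 10 counts at 24 h and 24, 10 and 17 at 48 h, at least 25.3-fold higher at 48 h against 3 counts over the control group. SOSTDC1 passed the filter on low counts only through that treated group, where it is high, so its difference is given without a test; it is 1 of the 4 genes of the list counted above as higher at 48 h at an unadjusted p under 0.05.

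**Figure D4:**
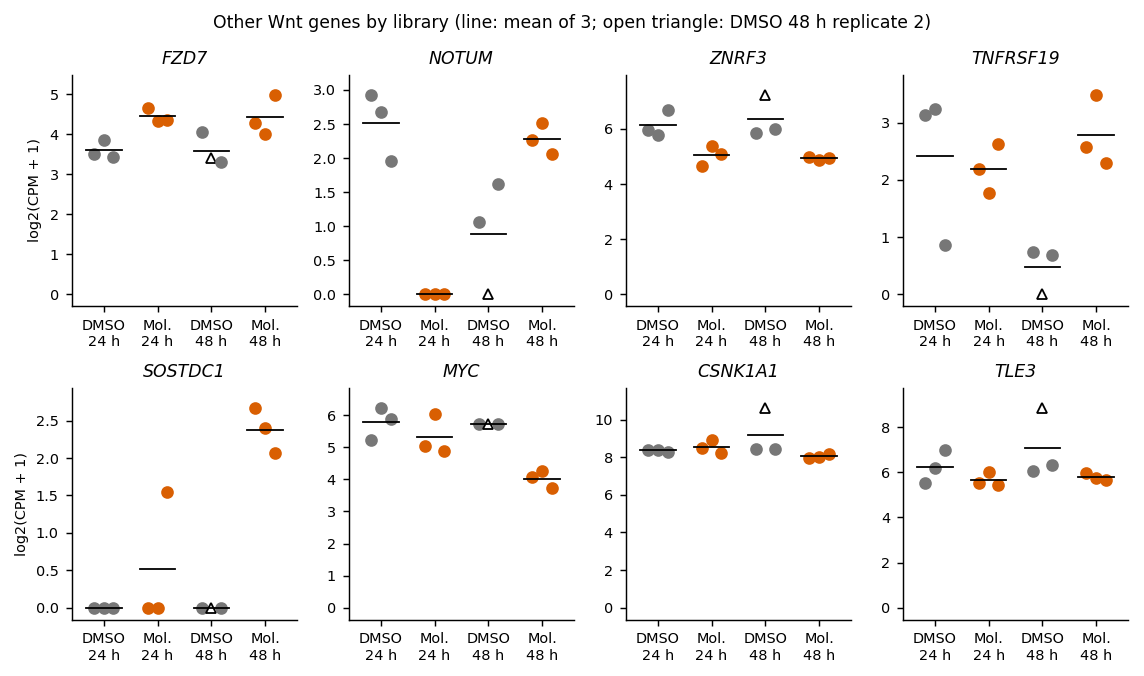
Level of 8 Wnt genes outside the members in each library as log2(CPM + 1), by treatment and time; lines are means of 3 libraries and the open triangle is DMSO 48 h replicate 2. NOTUM is at 0 in all Molidustat libraries at 24 h, SOSTDC1 is at 0 in all DMSO libraries, and ZNRF3 is lower with Molidustat at both times.

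In the list of the destruction complex and its regulators, 17 of 21 genes were tested, with median changes of 0.19 at 24 h and -0.06 at 48 h. CSNK1A1, the casein kinase that primes beta-catenin, stood at 349.5, 1576 and 346.7 CPM in DMSO and at 246.9, 259.4 and 282.5 in Molidustat at 48 h. The groups did not overlap, and the change was -1.52 (SE 0.49, adjusted p = 0.211 in edgeR), or -0.42 (SE 0.24) without replicate 2. The 14 genes of the TCF complexes were all tested, with medians of 0.05 and -0.03. TLE3, a co-repressor of TCF factors, stood at 65.2, 461.4 and 78.2 CPM against 60.9, 52.6 and 49.2 at 48 h, without overlap, and its change of -1.87 (SE 0.61, adjusted p = 0.215 in edgeR) became -0.42 (SE 0.36) without replicate 2. Like TCF7L2, both genes had their high control value in that library.

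Of 21 Wnt targets 16 were tested, with medians of -0.10 at 24 h and -0.49 at 48 h, or -0.63 at 48 h without DMSO 48 h replicate 2. These 48 h medians were the lowest among the lists with more than 10 tested genes. With all libraries the 2 tested ligands (-1.33) and the 4 tested R-spondin genes (-0.51) lay lower. At 48 h 9 of the 16 targets were below 0 (56.2%), against 54.5% of the whole list without MCC. Groups did not overlap for 3 higher and 4 lower targets at 48 h (9.96% and 8.01% of all genes). Targets with an unadjusted p under 0.05 at 48 h numbered 1 higher and 3 lower of 16 (4.53% and 8.81% of all genes), and 1 and 4 without that library (3.68% and 2.92%). MYC, a transcription factor driving growth, stood at 52.4, 52.0 and 51.5 CPM in DMSO and at 15.9, 18.4 and 12.2 in Molidustat at 48 h, without overlap and with replicate 2 level with its group. Its change was -1.75 (SE 0.39, adjusted p = 0.0982 in edgeR), and -1.77 (SE 0.39, adjusted p = 0.0665) without replicate 2. It missed the threshold in edgeR and was called by DESeq2 (adjusted p = 0.00411), by limma-voom (adjusted p = 0.00356) and by edgeR with no filter on low counts (adjusted p = 0.00543). At 24 h the MYC groups overlapped, at -0.42 (SE 0.37).

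TNFRSF19, a receptor of the tumor necrosis factor family and Wnt target, was higher in every treated library at 48 h, with 5, 0 and 6 counts in DMSO and 22, 24 and 21 with Molidustat. Its change was 3.44 (SE 1.03, adjusted p = 0.203 in edgeR). DESeq2 called it with all libraries (adjusted p = 0.0292) but not without DMSO 48 h replicate 2. GLUL, glutamine synthetase, which marks Wnt activity around the central vein of the liver and was chosen here after its values were seen, was lower in every Molidustat library at 24 h, at -1.01 (SE 0.49, adjusted p = 0.955 in edgeR), and DESeq2 without DMSO 48 h replicate 2 called it (adjusted p = 0.0336). At 48 h its change was -0.24 (SE 0.48), or -0.69 (SE 0.31) without replicate 2. CCND1, which encodes cyclin D1 and was also picked after its values were seen, stayed at 0.08 (SE 0.31) and 0.02 (SE 0.31).

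**Figure D5:**
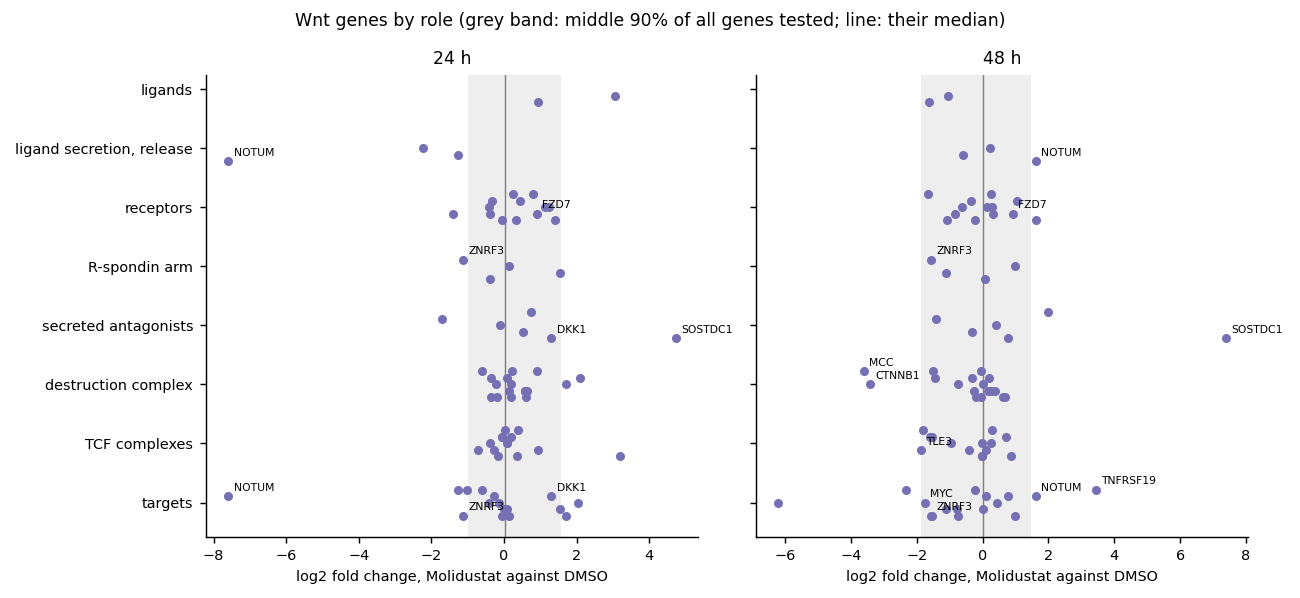
Log2 fold change of tested Wnt genes with Molidustat at 24 h and 48 h, by role, 1 point per gene and vertical offsets only to separate points; the grey band holds the middle 90% of all genes tested and the line is their median. Most points lie inside the band, NOTUM lies far to the left at 24 h and SOSTDC1 far to the right at 48 h, both fitted against groups without counts.

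Genes reported to associate with MCC or to resemble it were taken as a further list of 6: SCRIB, NHERF1, NHERF2, EZR, VIM and USHBP1. With all libraries the first 5 were tested and none was called, with medians of -0.10 and 0.37. Without DMSO 48 h replicate 2, 6 were tested and the medians were 0.12 and 0.03. VIM, which encodes the intermediate filament vimentin, was higher with Molidustat in every library at both times, at 0.94 (SE 0.34, adjusted p = 0.677 in edgeR) and 1.05 (SE 0.34, adjusted p = 0.212). EZR, the membrane linker ezrin, was at -0.13 (SE 0.32) and -0.39 (SE 0.32).

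The genes whose levels tracked MCC most closely over the 12 libraries, by Pearson correlation of log2 CPM, were CCT3 (0.961), MYBBP1A (0.956), SGPL1 (0.952), KMT5A (0.944) and RBM28 (0.944). Over the 11 libraries without DMSO 48 h replicate 2 they were ENSG00000261278 (0.968), CCT3 (0.951), GAL (0.946), CENPA (0.946) and ANXA2R-AS1 (0.941), with CCT3 the gene in both. These values are descriptive, since the points share the 4 groups and the libraries' depth. CCT3, a chaperonin subunit, stood between 553.8 and 790.2 CPM in the DMSO libraries and between 355.1 and 498.4 with Molidustat. Among the members, CTNNB1 was at 0.67 over the 12 libraries and 0.30 without that library, TCF7L2 at 0.62 and -0.11, APC at 0.42 and 0.34, and AXIN2 at -0.08 and 0.37.

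The identity of the cells was checked with markers. AFP, the fetal serum protein made by hepatomas, was the most abundant of 7 hepatocyte genes, which summed to 9817 to 12383 CPM in DMSO and 14109 to 17426 with Molidustat at 24 h, and to 7636 to 13405 and 18521 to 22149 at 48 h, higher in every treated library. The part of this in the members' values was not tested. The median change of these 7 was 0.53 and 0.94, none was called with all libraries, and SERPINA1 was called higher at both times without DMSO 48 h replicate 2. Endothelial genes summed to at most 6.43 CPM, with VWF at 0 throughout, and the 1 of 3 tested, PECAM1, changed by 0.48 and -1.19. Fibroblast genes summed to 9.73 to 19.0 CPM with Molidustat at 48 h and to at most 7.55 elsewhere, LUM being the most abundant, and the 2 of 4 tested had medians of 0.22 and 1.62. COL1A1 had at most 7 counts in any library.

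Of the 3 leukocyte genes PTPRC, the defining one, had at most 4 counts in a library. The sum was nearly all LYZ, lysozyme, and was 160.4 to 232.0 CPM in DMSO and 147.6 to 169.3 with Molidustat at 24 h, and 102.8 to 138.5 against 44 to 76.2 at 48 h. LYZ was lower at that time as MCC was, without overlap, at -1.17 (SE 0.30, adjusted p = 0.175 in edgeR), and the 2 tested genes of the list had medians of 0.09 and -0.46. Of 3 colon genes CDX1 was at 0 and LGALS4 had counts in 2 libraries only. CDX2, an intestinal transcription factor, made up the sum or nearly so in all libraries but DMSO 48 h replicate 2, where LGALS4 had 4.24 CPM, and stood at 45.9, 44 and 48.5 CPM with Molidustat at 48 h against 26.3, 3.18 and 22.5 in DMSO, at 1.32 (SE 0.49, adjusted p = 0.256 in edgeR), and at -0.61 (SE 0.50) at 24 h, where the list summed to 18.8 to 22.6 CPM in DMSO and 9.55 to 18.6 with Molidustat. The part of such genes in the MCC difference was not tested.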

How the data were processed

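The 12 libraries were made with the QIAseq UPX 3′ kit from total RNA of Huh7 cells, with 3 libraries per group. Per the submitters' processing notes and the study's methods, reads went through bcl2fastq 2.17.1.14, cutadapt 1.9.1, STAR 2.7.9a on GRCh38 and HTSeq 0.11.2, and the authors normalized with DESeq2 1.26.0. The deposited values are raw read counts per Ensembl gene, 60666 per file, not normalized. Whether molecular identifiers were collapsed and whether strand was used is not given in the sources used here. The 5 HTSeq summary lines were left out of library sizes. In them reads in no gene made up 17.1 to 50.4%, ambiguous reads 1.20 to 2.60% and reads with several alignments 7.08 to 10.4%, and the line for low quality repeated the last of these in every file. Names came from GENCODE release 44, which named 60437 of the genes.

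Genes were kept by edgeR's filterByExpr (minimum count 10, minimum total 15), which left 14274 with all libraries and 15253 without DMSO 48 h replicate 2. edgeR 4.0.16 (R 4.3.3) fitted the 4 groups in 1 quasi-likelihood model with TMM factors, and p-values were adjusted by Benjamini-Hochberg over all genes tested. Of the 4 group means, contrasts were taken for Molidustat against DMSO at 24 h and 48 h, their difference, and each treatment over time. The p-values measure only the spread between these libraries, 3 per group, which the methods call biological replicates. The SE of an edgeR log2 fold change is its absolute value divided by the square root of the quasi-likelihood F statistic. Levels are TMM-scaled CPM, and the log2 CPM behind the correlations used a prior count of 2. Alternatives used DESeq2 1.42.0, limma-voom 3.58.1 with sample quality weights, other factors and filters, a replicate block and each library left out. Scripts were tested on simulated data, in which 200 genes were changed by 2 on the log2 scale. There edgeR called 34.5% of them at 24 h and 35% at 48 h, with 3 and 10 false calls. DESeq2 called 53.5% and 52%, with 31 and 33 false calls. A gene that was not called is therefore not shown to be unchanged. The 10 members, the gene lists and the tests were chosen with earlier results of these data known. Beside the members, the text names, from the Wnt list, up to 5 genes per comparison and direction with the smallest unadjusted p under 0.05 and groups without overlap, the 5 genes closest to MCC by correlation, the treatment and cell type markers and the genes next to MCC. GLUL, CCND1, WNT3, WNT5A, WNT5B, WNT10A, PORCN and WLS, and VIM and EZR among the genes reported to associate with MCC, fall outside this rule and were named after their values were seen. The floor of 3 counts used for groups at 0 covers counting error only. Sequences are from RefSeq.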

Additional observations from a re-analysis of the deposited data

Results flagged for a closer look

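NOTUM was lower in every Molidustat library at 24 h and, scaled to library size, higher in every one at 48 h, and this opposite direction drew attention to it. The difference of the log2 fold changes, 48 h minus 24 h, was 9.22 (SE 1.85), with an adjusted p of 0.728 in edgeR, which with no filter on low counts called it at 9.17 (adjusted p = 0.00790). DESeq2 gave 8.65 and called it (adjusted p = 0.0166), and on the 11 libraries other than DMSO 48 h replicate 2 it gave 8.38 (adjusted p = 0.0389). NOTUM was flagged for this same difference, so these p-values and calls describe it and are no test of it. The sizes are fitted against a group without counts and are no bound. NOTUM had at most 29 counts in a library.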

How the results depend on the processing

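The count of genes called, of which the main values were 33 at 24 h, 30 higher and 3 lower at 48 h, 0 for the difference between times, 1 for DMSO over time and 0 for Molidustat over time, moved with the tool and the filter; the cause was not tested. DESeq2 gave 141, 350, 4, 43 and 12 in that order, limma-voom 64 and 278 for the first pair and 2 and 1 for the last, and no filter on low counts 106, 764, 321, 400 and 4. A minimum of 10 counts in every library gave 15, 15 and, for DMSO over time, 0. Fitting only the groups compared gave 57, 7 and, for DMSO over time, 0, and total counts gave 3 there. DESeq2 without DMSO 48 h replicate 2, an alternative chosen after seeing the data, gave 239, 175, 1, 23 and 94. The balance at 48 h also turned, from 30 higher and 3 lower to 173 and 177 with DESeq2, 154 and 610 with no filter, 55 and 272 without DMSO 48 h replicate 1 and 46 and 152 without DMSO 48 h replicate 3. In the Wnt list, 0 genes at 24 h became 1 with DESeq2, 2 with no filter and 3 with the added alternative. At 48 h the 1 gene, MCC, which was picked for this contrast, became 3 with DESeq2 (TNFRSF19, MYC and ZNRF3), where MCC got no p-value. The list gave 3 with limma-voom, 9 with no filter, 0 with only the groups compared and 2 with the added alternative. The 3 of limma-voom were MCC, MYC and SOSTDC1, and the 2 were MCC and MYC. The 9 included MCC, SOSTDC1, CTNNB1 (-3.33), TCF7L2 (-1.53) and MYC (-1.75). Calls of MCC and SOSTDC1 within these counts are no test of either gene. For the difference between times the list gave 1, 5 and 1 under DESeq2, no filter and the added alternative, for DMSO over time 3 with no filter, and for Molidustat over time 1 with DESeq2 and 4 with the added alternative. The 5 and the 4 include MCC, which was picked from the 48 h libraries, and are no test of it. The 1, 5 and 1 for the difference include NOTUM, flagged for that difference, and are no test of NOTUM there. Leaving out 1 library at a time, the calls ranged from 20 (without DMSO 24 h replicate 1) to 116 (without DMSO 48 h replicate 2) at 24 h, from 13 (without Molidustat 48 h replicate 3) to 327 (without DMSO 48 h replicate 1) at 48 h, from 1 to 2 for DMSO over time and from 0 to 4 for Molidustat over time. At 48 h the counts were also 198 without DMSO 48 h replicate 3, 53 without replicate 2, and 17 and 14 without Molidustat 48 h replicates 1 and 2, and at 24 h 21 without DMSO 24 h replicate 2. The Wnt list ranged from 0 to 1 at 24 h and from 0 to 4 at 48 h, counts that include MCC itself and are no test of it; the 4, without DMSO 48 h replicate 1, held CTNNB1, TLE3 and ZNRF3 beside it. The log2 difference of MCC at 48 h lay between -4.01 and -2.06 in these fits and was -2.11 in limma-voom. Scaling to total counts shifted the median log2 fold change of all genes at 48 h from 0.01 to 0.13, of the difference between times from -0.02 to 0.16 and of DMSO over time from 0.02 to -0.13, where the calls went from 0 higher and 1 lower to 1 and 2.

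Same-numbered replicates did not pair: 3 of 18 correlations of their deviations exceeded 0.1. With a replicate block the calls were 30 at 24 h and 22 at 48 h, and 0 in the Wnt list at 48 h, where MCC was at -3.29. The 3′ counts of AXIN2, LGR5, NKD1 and RNF43 limit what can be said of them, as does the depth of 1499273 counts in DMSO 48 h replicate 2.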
